A study of Mus musculus with 12 samples.

Results

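Apod, Apoe, Clu and Fabp5, 4 genes for lipid-carrying proteins of peripheral nerve, were followed across all groups of a Larp1 knockdown experiment in mouse sensory neurons. They were taken from the count table by name, through their Ensembl identifiers, and all 4 of them were among the 15391 genes listed. The set was selected on measured values of these data, chiefly the higher Apod level in the shLarp1 pulldown, so the levels and ratios below are descriptions and no p-value is given for them. The set was labelled as secreted carriers, which holds for Apod, Apoe and Clu. Fabp5 belongs to the cytosolic fatty acid-binding proteins, so the set is called lipid carriers here.

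The cells were adult dorsal root ganglion neurons in culture, genotype RPL22HA+/+;Advillin-Cre+, from mice whose sciatic nerve had been injured beforehand (labelled Preconditioned), a lesion that starts a growth program. In RiboTag mice, Cre adds an HA tag to the ribosomal protein Rpl22, here under the Advillin promoter, which is active in sensory neurons. An antibody against HA then pulls down tagged ribosomes with their mRNA, called the IP, while the input is the RNA of the whole lysate, other cells of the culture included. The 4 groups were the IP and the input of neurons infected with AAV-shLarp1, a virus that carries a short hairpin against Larp1, and the IP and the input of neurons infected with a control virus (AAV-Control in the IP titles and AAV-shControl in the input titles). Genotype, nerve injury and culture were shared by all 4 groups. Larp1 is known to bind the cap of mRNAs for ribosomal proteins together with the pyrimidine tract next to it.

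Apod is a secreted lipocalin that binds arachidonic acid and other small hydrophobic ligands, and is made by glia and fibroblasts of injured nerve. Apoe is the lipoprotein component that glia and macrophages use to hand cholesterol to cells that carry lipoprotein receptors, and Clu (clusterin, apolipoprotein J) is a secreted chaperone that also travels on lipoprotein particles. Fabp5, the epidermal fatty acid-binding protein, carries fatty acids inside the cell and is known to rise in sensory neurons after nerve injury.

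Each group had 3 columns of estimated counts. The summed counts were 9530760 in shLarp1 IP, 9382094 in control IP, 2279226 in shLarp1 input and 1693039 in control input. Within a group the 3 totals differed by 0.0344% to 0.0939%, less than counting error alone would give, and no member differed between the columns of a group beyond sampling noise by a chi-square test (lowest p 0.0899, for Fabp5 in control IP). The columns were therefore counted as 1 sample per group, although over all genes they differed slightly more than sampling noise. Every group value below has n = 1, every interval is a 95% interval for counting error only, no test between conditions is possible, and no difference has a replicate check. PCR copies without molecular identifiers are not independent molecules, so true intervals are wider. The words higher and lower, as calls, are kept for genes whose whole interval lay beyond 1.5-fold. Larp1 itself had 149 counts in shLarp1 IP and 442 in control IP (log2 ratio -1.72, interval -2.0 to -1.45), and 8 counts in shLarp1 input and 18 in control input (-1.37, -2.78 to -0.09). Rpl22, the tagged protein, had an IP log2 ratio of -0.17 (-0.23 to -0.12).

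Because Larp1 recognises the first transcribed bases of its best-known targets, the sequences around the annotated starts are shown for the members that had an entry, Apod and Apoe. Clu and Fabp5 are named only. The 30 bases before the start are in lower case and the first 20 transcribed bases are in capitals, from RefSeq on GRCm38.p6, 5′ to 3′ on the minus strand.
Apod (chr16:31314789-31314838): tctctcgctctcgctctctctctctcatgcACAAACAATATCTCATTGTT
Apoe, start 1 (chr7:19699169-19699218): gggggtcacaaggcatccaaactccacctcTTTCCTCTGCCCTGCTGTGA
Apoe, start 2 (chr7:19698602-19698651): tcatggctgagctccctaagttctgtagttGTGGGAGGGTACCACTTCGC
Apoe, start 3 (chr7:19698379-19698428): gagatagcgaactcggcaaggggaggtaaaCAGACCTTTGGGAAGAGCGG
The annotated Apod start has A as its first base, a few bases after a CT repeat that lies upstream. Of the 30 bases before the start, 26 are C or T, and 0.84% of the 32851 starts in the table have as many or more. The first Apoe start opens with a run of 8 pyrimidines that begins with T. None of these 4 starts has C as its first transcribed base followed directly by 4 bases that are each C or T, a pattern present at 2.51% of all starts in the table. The annotated starts of the ribosomal protein genes Rplp0 (1 start) and Rps19 (3 starts) in the same table do not have it either, so these annotated starts say little about which mRNAs carry the tract.

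Apod was the member whose IP level differed most between the viruses. Its 3 columns held 1025, 1028 and 1040 counts in shLarp1 IP, against 378, 387 and 407 in control IP. Every shLarp1 column lay far above every control column, but the columns of a group count as 1 sample, so this is no replicate check. As scaled levels these were 209 CPM (counts scaled to a common library size) in shLarp1 IP (interval 201 to 216) and 87.8 in control IP (82.8 to 93.0). The scaling was TMM, a factor per column that sets the bulk of genes level between columns. The ratio was 2.38-fold (log2 1.25, 1.15 to 1.35).

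In the input, which also holds RNA outside tagged ribosomes, Apod gave no such difference. The columns held 26, 31 and 25 counts in shLarp1 input, against 32, 29 and 25 in control input, and the groups overlapped. The scaled level was 58.0 CPM in shLarp1 input and 69.8 in control input, a log2 ratio of -0.27 (-0.72 to 0.19). The upper end of that interval lies below the lower end of the IP interval. In the ratio of the IP change to the input change, the interaction of virus and fraction, Apod had a log2 value of 1.51 (1.07 to 1.96).

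Ordered by level, Apod stood highest in shLarp1 IP, then in control IP, control input and shLarp1 input. Of the neighbours in that order, the intervals of shLarp1 IP and control IP did not overlap, and the others did. Control IP (82.8 to 93.0) and shLarp1 input (46.1 to 72), which are not neighbours, did not overlap. Of the 4 members, Apod alone was called higher in shLarp1 IP, in a comparison where 5.12% of 8766 genes were called, 0.719% higher and 4.4% lower. That split of 63 higher to 386 lower was 105 to 205 with total counts and 104 to 207 with upper-quartile factors. The choice of Apod used this contrast, so nothing is read from that count. Its ratio ranked 59 of 8766 genes, and 1 among the 3078 genes with at least 500 IP counts, a minimum set after the values were seen. The next in that ranking, named after its values were seen, was the WD-repeat gene Pwp1 at 0.99 (0.72 to 1.27).

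**Figure D1:**
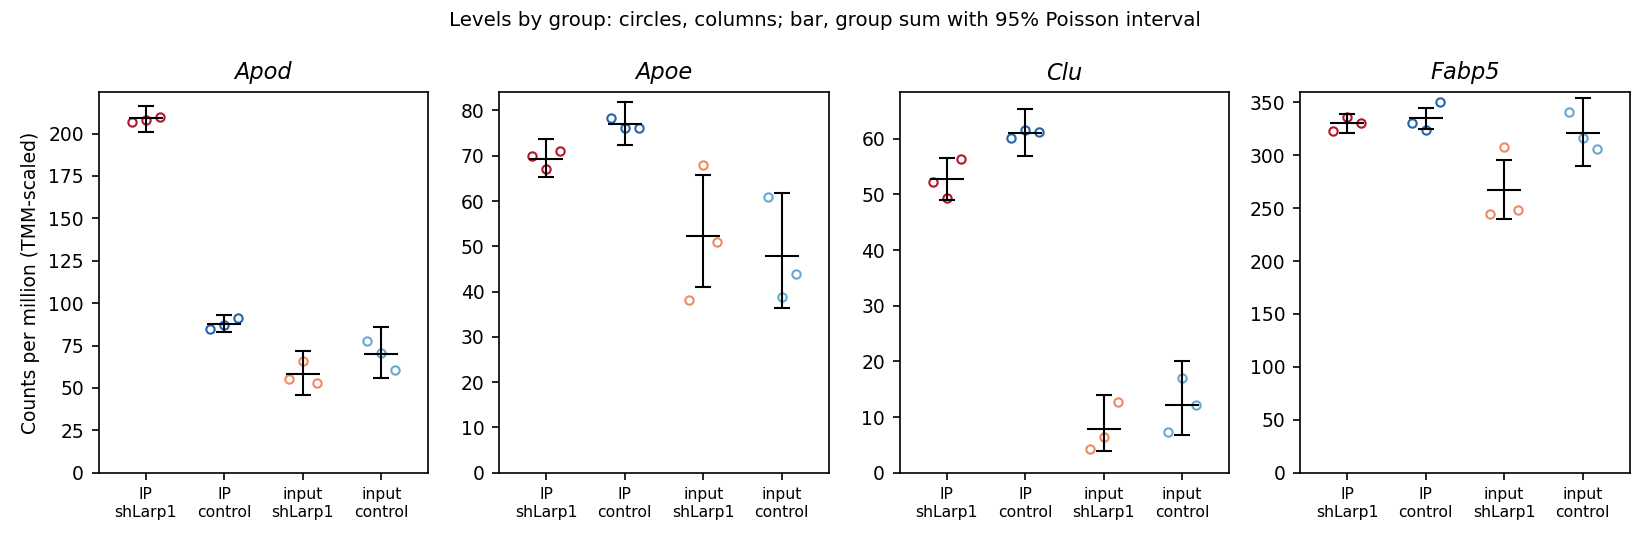
Level of each member (CPM after TMM scaling, linear axis from 0, a scale of its own in each panel) in shLarp1 IP, control IP, shLarp1 input and control input. Circles are the 3 columns and the bar is the group sum with its 95% Poisson interval. Apod stands at 209 in shLarp1 IP and between 58.0 and 87.8 in the other groups, and Clu is low in both inputs.

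Apoe, the cholesterol carrier, showed no such IP difference. Its columns held 346, 331 and 351 counts in shLarp1 IP, against 349, 339 and 339 in control IP. These counts overlapped, whereas the scaled columns did not, at 70.0, 67 and 71 CPM in shLarp1 IP and 78.4, 76.2 and 76.2 CPM in control IP. The group levels were 69.3 CPM in shLarp1 IP and 76.9 in control IP (log2 ratio -0.15, -0.28 to -0.02), a ratio of -0.021 with total counts in place of TMM. In input the columns held 18, 32 and 24 counts with shLarp1, against 25, 16 and 18 with the control virus. Those columns also overlapped, at 52.3 CPM in shLarp1 input and 47.9 CPM in control input, with a log2 ratio of 0.13 (-0.38 to 0.65). The intervals of all neighbours in the order of its 4 levels overlapped. Farther apart in that order, the control IP interval (72.3 to 81.8 CPM) lay above those of both inputs.

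Clu, the secreted chaperone, differed between IP and input, and within 1.5-fold between the viruses in the IP. Its columns held 258, 244 and 279 counts in shLarp1 IP, against 268, 274 and 272 in control IP. These counts overlapped, whereas the scaled columns did not, at 52.2, 49.4 and 56.4 CPM in shLarp1 IP and 60.2, 61.6 and 61.1 CPM in control IP. The group levels were 52.7 CPM in shLarp1 IP and 61.0 in control IP (log2 ratio -0.21, -0.35 to -0.07). With total counts in place of TMM the ratio was -0.082 (-0.226 to 0.061), and with upper-quartile factors -0.084 (-0.228 to 0.059). These intervals include 0, so the difference depends on the scaling. In input Clu was scarce, with 2, 3 and 6 counts with shLarp1 and 3, 7 and 5 with the control virus. These groups overlapped. Its intervals did not overlap between control IP and shLarp1 IP, nor between shLarp1 IP and control input, and did between the inputs. The input ratio of -0.65 had an interval of -1.91 to 0.57, so a difference was not detectable at this depth.

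Fabp5, the intracellular carrier, had close levels in both IPs. Its columns held 1595, 1662 and 1632 counts in shLarp1 IP, against 1469, 1444 and 1558 in control IP. The unscaled columns did not overlap, but after scaling the levels were 330.0 CPM in shLarp1 IP and 335 CPM in control IP, with a log2 ratio of -0.02 (-0.08 to 0.04), an interval that leaves out a change beyond 1.5-fold in these libraries. In input the columns held 115, 145 and 117 counts with shLarp1, against 140, 130 and 126 with the control virus (log2 ratio -0.27, -0.48 to -0.06). These columns overlapped as well, at 267 CPM in shLarp1 input and 321 CPM in control input. So did the intervals of all neighbours in the order of the 4 levels. Farther apart in that order, the shLarp1 input interval (240 to 295 CPM) lay below those of both IPs. The interaction value of Fabp5 was 0.25 (0.04 to 0.46), within 1.5-fold.

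Neither Apoe, Clu nor Fabp5 was called in the virus comparison of the IP, of the input (1.19% of 7588 genes called) or in the interaction (6.95% of 7581 genes called, 1.39% higher and 5.57% lower). The input split of 13 higher to 77 lower was 181 to 35 with DESeq2 size factors, 117 to 43 with upper-quartile factors, 43 to 59 with TMM from the group sums and 7 to 203 with total counts. The interaction split of 105 higher to 422 lower was 396 to 139 with total counts and 47 to 553 with DESeq2 size factors. In the IP the intervals of these 3 lay within 1.5-fold. Their values near 0 are to be read beside a median of -0.08 over all genes in the IP and -0.14 in input.

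**Figure D2:**
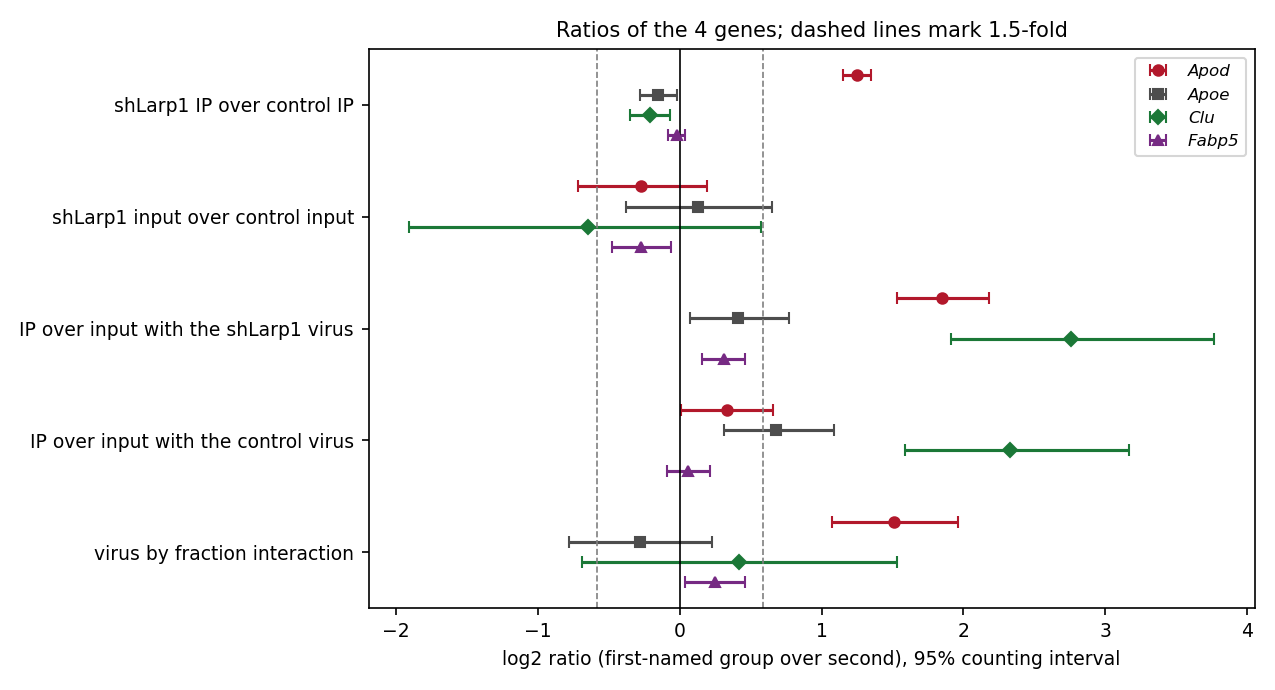
Log2 ratio of each member in the 4 comparisons of groups and the interaction (x axis, first-named group over second), with 95% counting intervals. Dashed lines mark 1.5-fold. Apod lies at 1.25 in the IP and at -0.27 in input, while Apoe, Clu and Fabp5 lie within the dashed lines in the IP.

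Counts of genes within a group can be set against each other without any scaling between libraries. There were 3.01 Apod counts per Apoe count in shLarp1 IP (2.8 to 3.23) and 1.14 in control IP (1.05 to 1.24). In input there were 1.11 with shLarp1 (0.799 to 1.54) and 1.46 with the control virus (1.03 to 2.07). The shLarp1 IP therefore stood apart from the other 3 groups in this ratio. Relative to Apoe, Apod was 2.64 times as high in shLarp1 IP as in control IP (exact interval 2.36 to 2.95), relative to Clu 2.75 times (2.44 to 3.1) and relative to Fabp5 2.41 times (2.23 to 2.61).

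In input the same ratios of ratios were 0.761 relative to Apoe (0.469 to 1.23), 1.3 to Clu (0.522 to 3.32) and 1.0 to Fabp5 (0.707 to 1.42). All 3 intervals include 1. The one relative to Clu also takes in the whole IP interval of 2.44 to 3.1, so it cannot tell input from IP. Apod made up 31.6% of the members' summed counts in shLarp1 IP and 15.7% in control IP, against 15.1% in shLarp1 input and 15.5% in control input.

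Markers of the cell types in the culture were used in the same way. For each cell type the listed marker with the most counts over all groups was taken, and for fibroblasts also Mgp, which had the most in the IPs alone. Relative to the glial myelin gene Pmp22, Apod was 2.57 times as high in shLarp1 IP as in control IP (2.34 to 2.82). The values were 2.9 relative to the matrix gene Sparc of fibroblasts, 2.29 to the macrophage lysozyme Lyz2, 2.81 to the smooth muscle actin Acta2 and 2.29 to the neuronal gamma-synuclein Sncg, with intervals from 1.99 to 3.17 over these 4 genes. Relative to Mgp, a matrix protein of fibroblasts, the value was smaller, at 1.72 (1.58 to 1.87). In input the values were 1.52 relative to Pmp22 (0.967 to 2.41), 0.763 to Sparc (0.551 to 1.06), 0.978 to Mgp (0.693 to 1.38), 1.27 to Acta2 (0.847 to 1.9) and 0.911 to Sncg (0.66 to 1.26). Lyz2 gave 1.71 in input (1.06 to 2.76), an interval that leaves out 1 and overlaps the IP interval of 1.99 to 2.63. Relative to Pmp22 the input and IP intervals overlap as well.

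**Figure D3:**
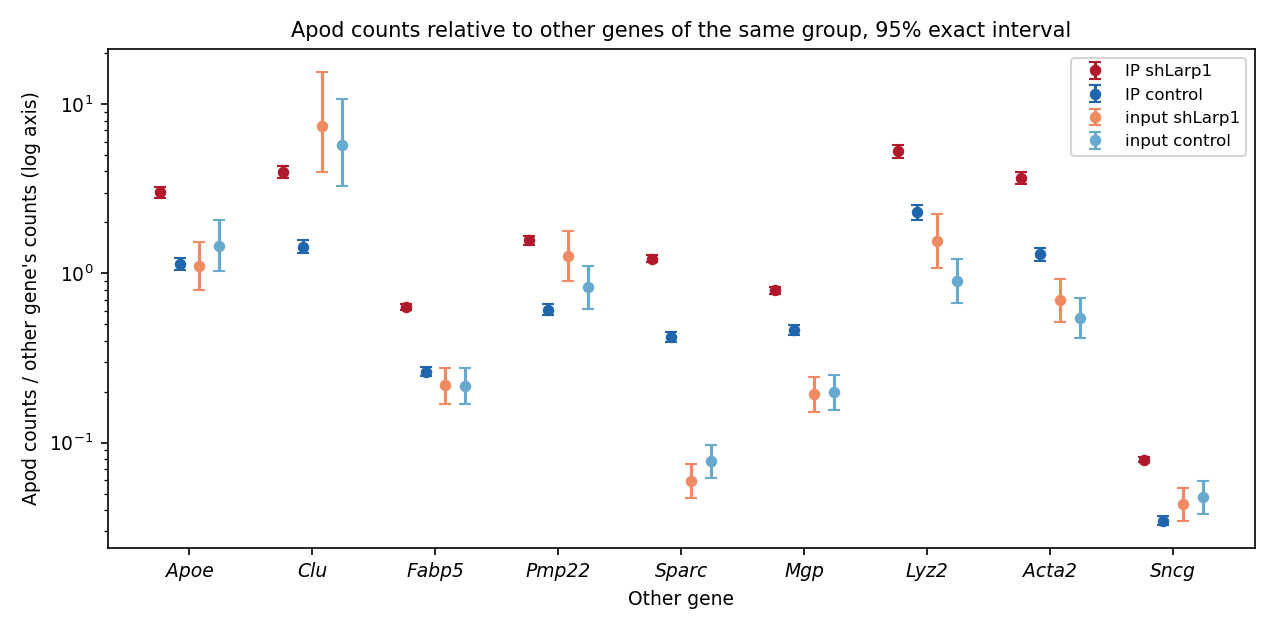
Apod counts divided by the counts of other genes in the same group (logarithmic y axis), with 95% exact intervals, for shLarp1 IP, control IP, shLarp1 input and control input. The genes are the other 3 members and the most counted marker of glia, fibroblasts (Sparc, and Mgp in the IPs alone), macrophages, mural cells and neurons. For each gene the shLarp1 IP point lies above the control IP point, and only against Clu do both input points lie above them. Heights are to be compared within a gene, since counts per gene also depend on transcript length and capture.

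Glia and fibroblasts are known to make Apod, so the markers of these and other cell types were read beside it. Of 20 markers of Schwann cells and satellite glia, all were in the table and none was at 0 in either IP. Their summed level was 483 CPM in shLarp1 IP and 519 in control IP, with 2334 to 2417 counts per column in shLarp1 IP and 2262 to 2349 in control IP. Of 16 evaluated, none was higher in shLarp1 IP, Gpm6b was lower (log2 -0.88, -1.18 to -0.59) and the median was -0.14. Over all genes 0.719% were called higher and 4.4% lower, so these counts are near the background.

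The fibroblast list, 18 of 19 genes in the table, summed to 693 CPM in shLarp1 IP and 671 in control IP, with 3329 to 3488 counts per column in shLarp1 IP and 2942 to 3033 in control IP. None of its 15 evaluated genes was called, where 5.12% of all genes were, so a count of 0 is near the background. The median was -0.08, equal to that of all genes. Among its members Mgp had 0.47 (0.39 to 0.54) and the binding protein Igfbp5 0.57 (0.37 to 0.76), whereas Sparc had -0.29 and fibronectin (Fn1) -0.47. The macrophage list, 12 of 14 genes in the table, summed to 111 CPM in shLarp1 IP (522 to 566 counts per column) and 106 in control IP (462 to 479). The vessel list, 10 of 10, summed to 85.3 CPM in shLarp1 IP (402 to 458 counts per column) and 96.3 in control IP (400 to 475). No gene of these 4 lists was at 0 in either IP. In input the glial list summed to 1550 CPM with shLarp1 and 1270 with the control virus, and the fibroblast list to 1850 with shLarp1 and 1720 with the control virus, each above the IP. A few genes carried these sums. Without Mag, the glial list stood at 309 CPM in shLarp1 input and 351 in control input, below the 475 CPM in shLarp1 IP and 506 in control IP. Without Sparc and Fn1, the fibroblast list stood at 440.0 CPM in shLarp1 input and 501 in control input, against 458 CPM in shLarp1 IP and 374 in control IP. Macrophage genes summed in input to 146 CPM with shLarp1 and 211 with the control virus, and vessel genes to 98.3 and 153. Without Acta2, the vessel list stood at 28.2 CPM in shLarp1 IP and 28.7 in control IP. In input it then stood at 14.8 CPM with shLarp1 and 25.1 with the control virus. At 0 in shLarp1 input were Pdgfra, Mrc1, Pecam1 and Kdr, and at 0 in control input Lum, Mrc1 and Flt1. Whether a subset of these cells contributed to the Apod value was not tested, and in bulk RNA a change in the number of cells of a type and a change in RNA per cell cannot be told apart.

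The pulldown was then read for each member by setting the IP against the input of the same virus. The IP and the input also differ in depth, and the size of this ratio moves with the scaling. With shLarp1, Apod lay 3.6-fold higher in the IP than in input (log2 1.85, 1.53 to 2.18), and with the control virus it had 0.33 (0.01 to 0.66), a value that turned to -0.15 with upper-quartile factors and to 1.30 with total counts. Clu was called higher in the IP with either virus, at 2.76 with shLarp1 (1.91 to 3.77) and 2.33 with the control virus (1.59 to 3.17). Apoe had 0.41 with shLarp1 (0.07 to 0.77) and 0.68 with the control virus (0.31 to 1.09), and Fabp5 had 0.31 with shLarp1 (0.16 to 0.46) and 0.06 with the control virus (-0.09 to 0.21), so neither was called. That made 2 of 4 members higher with shLarp1, where 39.0% of 8771 genes were called and 25.9% were higher. With the control virus it was 1 of 4, where 35.5% of 8773 were called and 23.0% were higher. With total counts all 4 members were called higher with either virus. The split of 2274 higher to 1146 lower with shLarp1 was 6147 to 752 with total counts, 1328 to 1489 with upper-quartile factors and 1705 to 1323 with TMM from the group sums. With the control virus, 2020 to 1095 was 4509 to 652 with total counts and 1293 to 1590 with upper-quartile factors. The medians of all genes were 0.93 with shLarp1 and 0.71 with the control virus, so Apod lay above the median with shLarp1 and below it with the control virus.

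The marker lists give the scale of that ratio. All 20 sensory neuron markers had a ratio above 0. Their median was 1.87 with shLarp1 (15 called higher, against 25.9% of all genes). With the control virus it was 1.68 (13 called higher, against 23.0% of all genes). Glial markers had medians of 0.05 and 0.04, fibroblast markers -0.19 and -0.44, macrophage markers -0.17 and -1.12 and vessel markers 0.69 and 0.14, with shLarp1 and the control virus in that order. Clu lay within the neuronal range with both viruses. Apod lay at about the neuronal median with shLarp1, whose high IP level was the reason for choosing it. With the control virus Apod had 0.33, just below the lowest of the neuronal markers, at 0.34. Glial Glul (2.43 with shLarp1, 2.16 with the control virus) and fibroblast Serpinf1 (2.68 and 2.36) were also called higher in the IP, so a high ratio was not limited to the neuronal list.

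**Figure D4:**
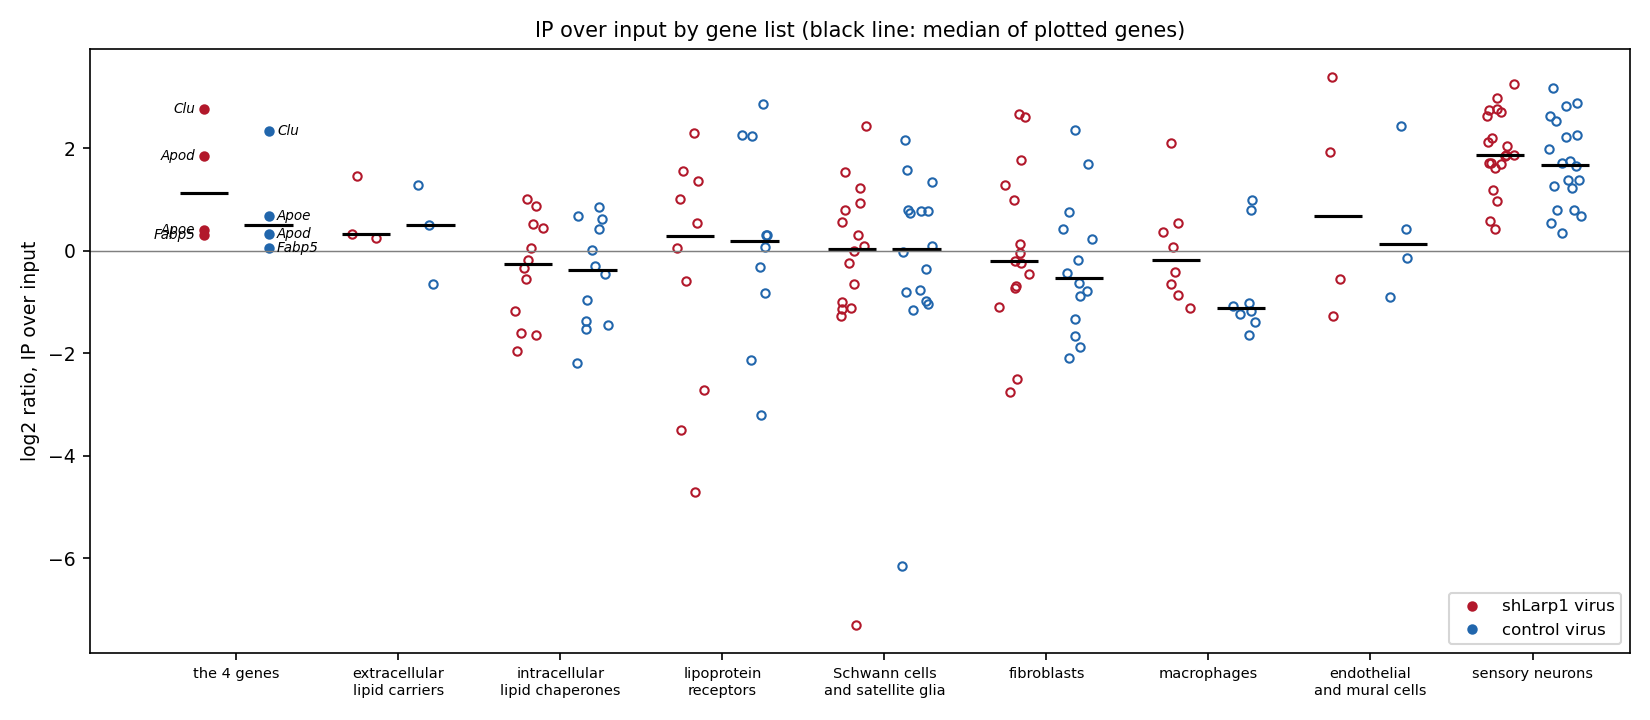
Log2 ratio of IP to input for the 4 members and for each evaluated gene of 8 lists, with shLarp1 to the left and the control virus to the right in each list. Black lines are medians of the plotted genes, and a gene with 0 input counts is not plotted. Apod lies at 1.85 with shLarp1 and 0.33 with the control virus. Of all points, the glial gene Mag lies lowest, at -7.31 and -6.15.

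Other extracellular lipid carriers were few in these libraries. Of 25 listed, 8 were in the table and 3 passed the filter on low counts. None of the 3 was called in the IP, where 5.12% of all genes were, so that count is near the background. The lysosomal sphingolipid activator Psap had 2823 counts in shLarp1 IP and 2385 in control IP (0.09, 0.01 to 0.17). The cholesterol-binding Npc2 had 1246 counts in shLarp1 IP and 910 in control IP (0.30, 0.18 to 0.43), and its input counts of 95 with shLarp1 and 131 with the control virus gave -0.66 (-1.06 to -0.27). Npc2 thus had a positive interaction value of 0.96 (0.56 to 1.36) which did not pass the 1.5-fold rule. The ganglioside activator Gm2a had -0.08 in the IP (-0.41 to 0.25).

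Intracellular lipid chaperones, the group of Fabp5, were then set beside it. Of 19 listed, 12 were evaluated and none was called in the IP, where 5.12% of all genes were, or in input, where 1.19% were, so both counts are near the background, with medians of 0.01 in the IP and -0.24 in input. The muscle-type Fabp3 had 8595 counts in shLarp1 IP and 7625 in control IP (0.02, -0.02 to 0.07), and the acyl-CoA-binding protein Dbi had 39054 counts in shLarp1 IP and 35295 in control IP (-0.01). The retinoic acid-binding Crabp2 had 0.41 (0.20 to 0.62). Within this family the IP to input ratio differed widely. With shLarp1 it was 1.01 for Fabp3, 0.31 for Fabp5, -1.96 for the glial Fabp7 and -1.65 for the myelin Pmp2, and with the control virus it was 0.85 for Fabp3, 0.06 for Fabp5, -1.53 for Fabp7 and -2.18 for Pmp2.

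Receptors for lipoprotein particles were measured less deeply. Of 24 listed, 10 were evaluated, none was higher in shLarp1 IP and 2 were lower, Lrp5 (-0.87, -1.15 to -0.59), better known as a Wnt co-receptor, and the leptin receptor Lepr (-0.81, -0.93 to -0.69), against 4.4% of all genes. Both were lower in IP than in input, Lrp5 at -4.71 with shLarp1 and -3.2 with the control virus, and Lepr at -3.49 and -2.14. Both were also called lower in the interaction, against 5.57% of all genes. The interaction value was -1.51 (-1.87 to -1.16) for Lrp5 and -1.35 (-1.54 to -1.16) for Lepr. Basigin (Bsg), described as a receptor for human APOD, had 3688 counts in shLarp1 IP and 3267 in control IP (0.02, -0.04 to 0.09). The lysosomal Scarb2 had 0.35 (0.16 to 0.55). Of 18 genes of lipid efflux and liver X receptor signalling, 10 were evaluated and none was called in the IP, again against 5.12% of all genes (median -0.47). Abca1, the transporter that loads Apoe with lipid, had 0.09 (-0.22 to 0.40).

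Genes with a pattern like that of a member were found by the Euclidean distance between log2 levels centred over the 4 groups, among 2388 genes with at least 20 counts in each group. Nearest to Apod were Sept7 (distance 0.653), the chemokine Ccl8 (0.674), Aplp1 (0.682), Rab1b (0.683) and the neuropeptide galanin, Gal (0.696). Their IP ratios were 0.37, 0.45, 0.37, 0.30 and 0.32, beside the 1.25 of Apod. Apod was chosen on this contrast, so nothing is read from that difference. The other members had closer neighbours. For Apoe these included 1700021F05Rik (0.0715) and Ndufb2 (0.114), and for Fabp5 Trappc1 (0.0498) and Arpc3 (0.0643). Clu had fewer than 20 counts in each input and was left out. With a minimum of 10 counts per group, its nearest genes were the neuronal Prkar1b (0.132), Cpe (0.155) and Pirt (0.169), and the nearest to Apod was G3bp2 (0.443), with an IP ratio of 0.65.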

How the data were processed

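RNA was sequenced from IP and input of cultured neurons with a nanopore cDNA-PCR barcoding kit, per the labels' protocols. The labels give cultured neurons as the source, whereas the extraction text speaks of fresh ganglia. The table the authors deposited holds whole-number estimated counts, not scaled. The submitters' processing notes name minimap2, Salmon, GRCm39 and mm39 without versions. Whether counting used strand is not stated there, so reads of overlapping or near-identical genes may be split. Symbols were matched by identifier for 13711 of 15391 genes.

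Counts were summed over the 3 columns of a group and scaled by TMM (edgeR 4.0.16, R 4.3.3) after filterByExpr (minimum count 10), which kept 8773 genes. Log2 ratios have exact Clopper-Pearson intervals. The interaction used 0.5 added counts and a normal approximation. The design called for edgeR's quasi-likelihood test in place of these intervals if columns differed beyond sampling noise. The columns differed slightly more than sampling noise over genes: 7.02% to 7.62% of genes with at least 30 counts had a chi-square p under 0.05, where noise gives 5%, and the median chi-square was 1.46 to 1.53, where noise gives 1.39. The cause of this excess was not tested. Since it was small and the column totals were closer than counting error allows, each group was counted as 1 sample, a departure from the design's rule. The edgeR and DESeq2 1.42.0 fits served as alternatives. Functions were tested on simulated data. The members and lists were chosen with earlier results of these data known. Named genes were Larp1, Rpl22, the members, up to 6 of the most counted genes of a list, any list gene called, and the nearest genes in pattern. A few genes that this rule names are not reported here.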

Additional observations from a re-analysis of the deposited data

Results flagged for a closer look

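The shLarp1 to control ratio of Apod differed between the fractions, at log2 1.25 in the IP and -0.27 in input, with an interaction of 1.51 (1.07 to 1.96). That of Fabp5 was -0.02 in the IP and -0.27 in input, with an interaction of 0.25 (0.04 to 0.46). Both were singled out because the interval of the interaction left out 0. These intervals cover counting error in 1 sample per group, and the difference was not tested between samples. The Fabp5 value lies within 1.5-fold, and with DESeq2 size factors its interval included 0 (0.044, -0.168 to 0.255).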

How the results depend on the processing

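Apod stayed called higher in shLarp1 IP over control IP, in IP over input with shLarp1 and in the interaction under each scaling run. The same held with any 1 column left out, but the columns of a group count as 1 sample, so this is no replicate check. The IP ratio of Apod was 1.38 with total counts and with upper-quartile factors, and 1.23 to 1.33 with a column left out. Its IP to input ratio was 3.17 (shLarp1) and 1.30 (control virus) with total counts, both called higher, and 1.34 and -0.15 with upper-quartile factors. In that order of viruses, total counts gave 1.73 and 1.65 for Apoe, 4.09 and 3.29 for Clu, and 1.63 and 1.03 for Fabp5, all of them then called higher. Upper-quartile factors gave -0.10 and 0.20 for Apoe and -0.20 and -0.42 for Fabp5. For Fabp5, TMM from the 4 group sums gave 0.016 and -0.16, and no filter 0.47 and 0.23. The IP ratio of Apoe was -0.021 with total counts and -0.023 with upper-quartile factors. That of Fabp5 was 0.11 and 0.10, and -0.037 to 0.061 with a column left out. That of Clu was -0.082 and -0.084, and -0.252 to -0.128 with a column left out. The input ratio of Fabp5 was -0.50 with total counts, -0.057 with DESeq2 size factors and its fit, and -0.28 to 0.011 with a column left out. The Fabp5 interaction was 0.61 with total counts. With DESeq2 size factors it was 0.044 (-0.168 to 0.255) and with TMM from the group sums 0.177 (-0.035 to 0.389). These 2 intervals include 0, as did the interval with any 1 input column left out. Genes called numbered 1066 in the IP with no filter, against 449. In input they numbered 216 with DESeq2 size factors, 210 with total counts and 160 with upper-quartile factors, against 90. In IP over input with total counts they numbered 6899 with shLarp1 and 5161 with the control virus, against 3420 and 3115. The cause of these shifts was not tested. The marker sums without their most counted input genes were chosen after seeing the data. With the replicate block the Apod log2 ratio was 1.25 in the IP, -0.27 in input and 1.51 in the interaction, as without it. That fit treats the columns as replicates, so it is no replicate check either. Same-numbered columns did not deviate together (correlations -0.0659 to 0.0391 over 18 pairs). Of the 5 genes most like Apod, 1 was shared with a minimum of 10 counts and 1 with a minimum of 50. Input depth limits Clu most, at 11 counts with shLarp1 and 15 with the control virus.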

Other observations

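Apoh, a plasma lipid-binding glycoprotein with too few counts to pass the filter, had 7, 3 and 6 counts in shLarp1 IP and 0 in each column of control IP. With 16 counts against 0, the interval of its log2 ratio began at 1.8. Apoc4 had 1, 1 and 4 counts in shLarp1 IP, against 12, 10 and 11 in control IP. Apoc2, which lies next to Apoc4 in the RefSeq annotation, had 10, 0 and 11 counts in shLarp1 IP and 3, 5 and 1 in control IP. The split of reads between these neighbours is uncertain, and the 3 genes were picked after their values were seen.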
